A study of Mus musculus with 23 samples.

Results

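Liver releases triglyceride on particles built around apolipoprotein B, and the genes described here act on those particles from assembly to removal from the blood. The list held 9 genes (Apob, Mttp, Sort1, Vldlr, Lrp1, Apoe, Apoa4, Apoa5 and Angptl4), and a gene counted as measured where the platform annotation gave a probe set its symbol and no other. By that rule 7 of the 9 genes were measured, with 10 probe sets among 38385, out of 19147 symbols in all. Apoe and Apoa4 are not analysed here. Each gene is represented by its brightest probe set, chosen by mean log2 intensity over all arrays.

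The arrays measured whole liver of mice with P2ry13 intact (WT) or ablated (KO), P2ry13 being a G protein-coupled nucleotide receptor that the labels also call GPR86. There were 6 female WT, 6 female KO, 5 male WT and 6 male KO arrays, 23 in all, with 1 array per liver sample. Replicates of male WT are numbered 2 to 6. The sources used here name no strain, age, diet, feeding state or array batch, and do not say which part of P2ry13 was deleted or in which tissues.

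As background, apolipoprotein B is the structural protein of the particle, and microsomal triglyceride transfer protein (Mttp) loads lipid onto it in the endoplasmic reticulum. Sortilin (Sort1) is a sorting receptor that binds apolipoprotein B in the secretory pathway. In the circulation, lipoprotein lipase removes triglyceride, apolipoprotein A-V (Apoa5) promotes this step and angiopoietin-like 4 (Angptl4) inhibits the lipase. The remnants are taken up by receptors such as Lrp1, while Vldlr binds triglyceride-rich particles and is usually low in liver.

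Promoter sequence was found for 5 of the 7 measured genes in the RefSeq promoter table (GRCm38.p6), and 3 are shown because Apob varied most between arrays, Apoa5 carried the largest number of the motifs searched and Vldlr differed most between the sexes. Each line gives the 150 bases before the first listed start, 5′ to 3′ on the plus strand, which is the coding strand of all 3 genes. Capitals mark the matches to the motifs searched.
Apob, chr12:7977527-7977676: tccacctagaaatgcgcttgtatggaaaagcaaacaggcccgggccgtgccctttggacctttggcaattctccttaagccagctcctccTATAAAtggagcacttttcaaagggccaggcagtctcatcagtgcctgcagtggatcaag
Apoa5, chr9:46268458-46268607: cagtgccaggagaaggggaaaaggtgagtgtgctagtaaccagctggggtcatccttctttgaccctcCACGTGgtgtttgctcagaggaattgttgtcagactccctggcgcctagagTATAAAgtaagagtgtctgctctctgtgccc
Vldlr, chr19:27216334-27216483: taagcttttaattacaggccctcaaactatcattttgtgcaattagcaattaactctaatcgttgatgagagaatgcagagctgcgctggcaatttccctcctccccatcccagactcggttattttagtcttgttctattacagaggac
The motifs were TATAAA (the TATA box core), CCAAT (the CCAAT box) and CACGTG (an E-box), each searched on both strands, and the matches shown do not overlap. TATAAA began 60 bases before the start of Apob and 31 bases before that of Apoa5, and CACGTG began 82 bases before that of Apoa5. The Vldlr window shown held none of the 3 motifs. The window of a later start listed for Vldlr held CCAAT on the opposite strand. On the plus strand that match reads ATTGG, beginning 78 bases before the later start. A later start listed for Apoa5 had the same TATAAA and CACGTG matches, at 56 and 107 bases before it. Over 32851 promoter windows of the same length, 7.57% held TATAAA, 24.5% held CCAAT and 4.3% held CACGTG. These matches describe letters and were not tested against the array values.

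Array medians lay between 19.5 and 21.1 on the linear intensity scale, and any pair of arrays correlated at 0.983 to 0.995 over all probe sets. The targeted gene followed the labels. P2ry13 had a mean log2 intensity of 6.27 ± 0.17 (SD, n = 6) in female WT and 5.15 ± 0.06 (n = 6) in female KO, and of 5.99 ± 0.22 (n = 5) in male WT and 5.19 ± 0.11 (n = 6) in male KO. Its fitted log2 KO-minus-WT difference was -1.12 (SE 0.09, adjusted p = 6.07e-09 by limma) in females and -0.80 (SE 0.09, adjusted p = 2.12e-05) in males. P2ry13 still read 5.06 to 5.34 on the KO arrays. That is above the range of Y-linked probe sets on female arrays, given below, and the source of the remaining signal was not tested. The 5 measured hepatocyte markers summed to 52207 to 61312 linear intensity units per array. Adipocyte markers (3 measured) summed to only 39.8 to 57.9. Adipoq had a mean log2 intensity of 3.25, inside the 2.53 to 3.69 that 4 Y-linked probe sets gave on female arrays. The mean log2 over all 3 adipocyte markers was higher, 3.59 to 4.19 per array, and reached above that range. Exocrine pancreas markers (4 measured) summed to 693 on female KO replicate 3, against at most 304 on any other array. That array is set apart again below, where it bears on Apoa5 and Angptl4.

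Apob and Angptl4 were the members that differed most from array to array within a group. With 1 array per liver sample, differences between animals and between arrays cannot be told apart. Each of these genes had 1 probe set, so no other probe set could be set beside it. Apob spanned 2.23 log2 units over the 23 arrays, 4.70-fold, and Angptl4 spanned 2.45 log2 units, 5.45-fold. Their residual SDs, 0.72 and 0.52 on the log2 scale, exceeded the 99th percentile of all probe sets, 0.37, where the median was 0.15. Mttp, Lrp1, Sort1 and Apoa5 had residual SDs of 0.14 to 0.16, near that median.

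**Figure D1:**
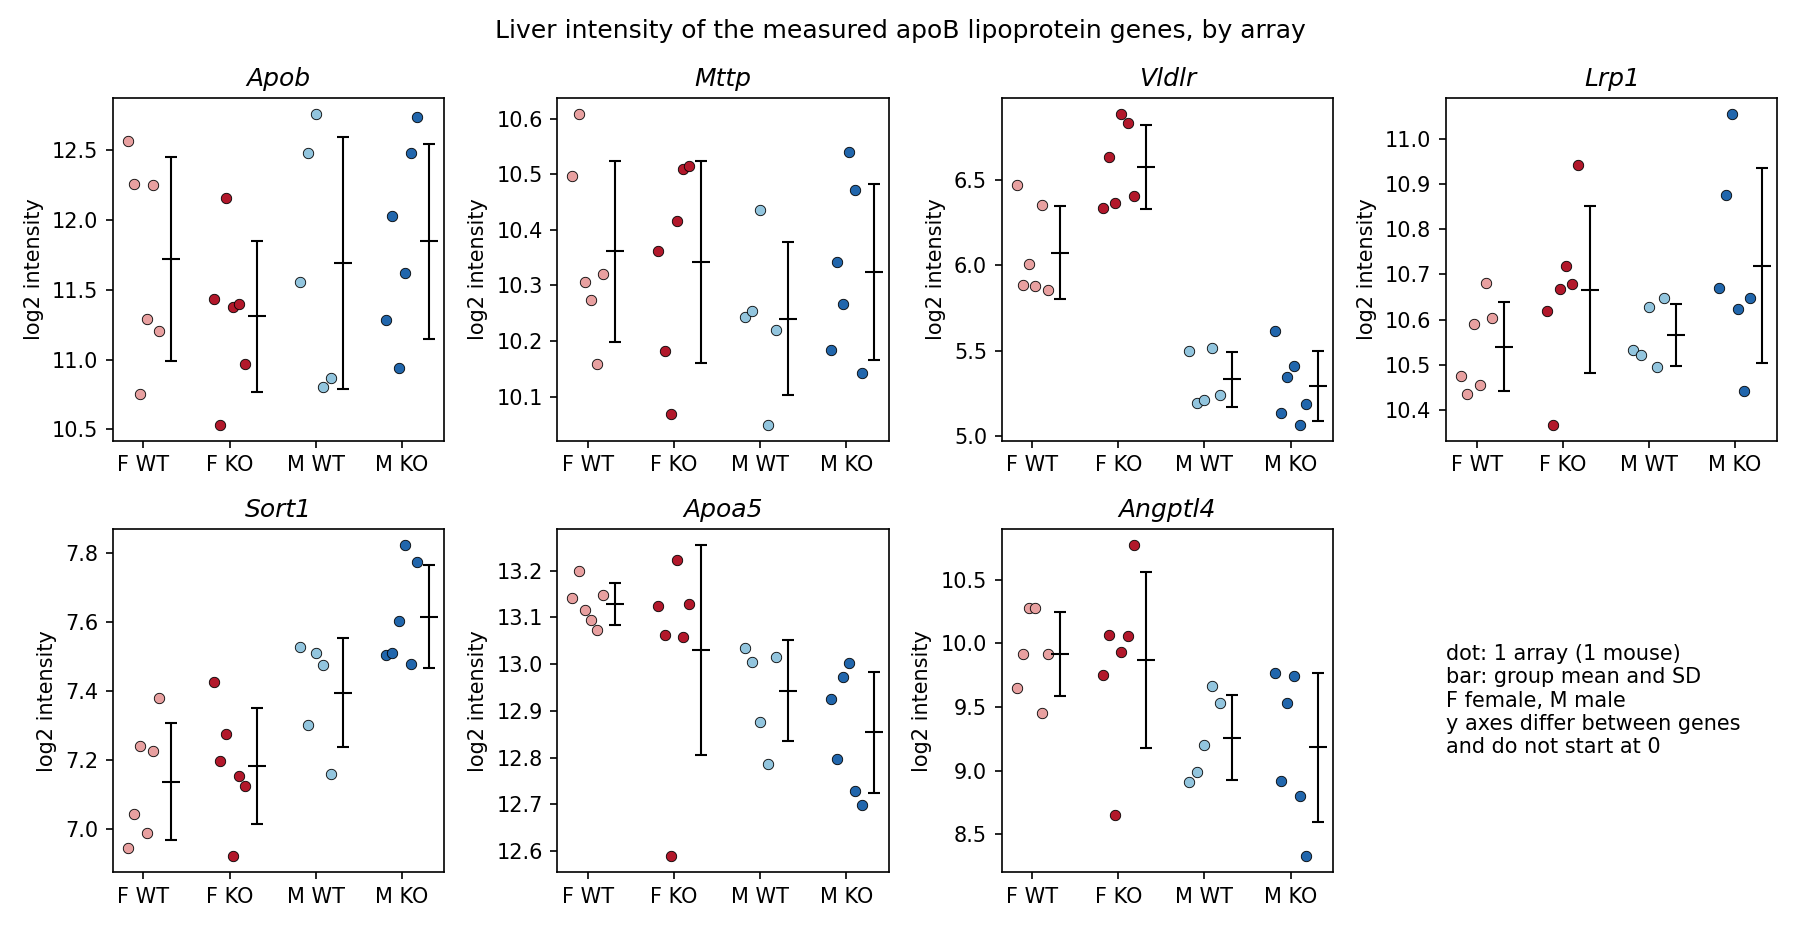
Log2 intensity of each of the 7 measured genes (vertical axis, scale set per gene) on every array, by group (horizontal axis). Each point is 1 array and the bar is the group mean with its SD. Vldlr shows all female arrays above all male arrays, and Apob shows a wide scatter inside each of the 4 groups.

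The first question was whether loss of P2ry13 changed liver transcripts for assembling the particle. None of Apob, Mttp and Sort1 passed in either sex. Over all measured members, 0 of 7 passed in females, where 0.0547% of all probe sets did, and 0 of 7 passed in males, where 0.0313% did (limma, Benjamini-Hochberg adjusted p below 0.05). At an unadjusted p below 0.05, 1 of 7 lay past the threshold in females (Vldlr) and 1 of 7 in males (Sort1), against 5.87% and 6.14% of all probe sets. The median of the members' differences was -0.02 in females and 0.08 in males.

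Apob, the structural protein, ranged from 10.75 through a median of 11.77 to 12.57 log2 intensity in female WT and from 10.53 through 11.39 to 12.16 in female KO. In male WT it was 11.56, 12.48, 12.76, 10.80 and 10.87 for replicates 2 to 6, and in male KO it ran from 10.94 through 11.83 to 12.74. Every group overlapped every other. The KO-minus-WT difference was -0.41 (SE 0.35, 95% confidence interval -1.14 to 0.32, adjusted p = 0.915) in females and 0.15 (SE 0.37, interval -0.61 to 0.92, adjusted p = 0.977) in males. With intervals this wide, a change of up to 0.92 in males or a fall to -1.14 in females was within the error.

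Mttp, the lipid transfer protein, was held in a narrow band. It ranged from 10.16 through a median of 10.31 to 10.61 in female WT and from 10.07 through 10.39 to 10.51 in female KO. Male WT gave 10.24, 10.25, 10.44, 10.05 and 10.22, and male KO 10.14 through 10.30 to 10.54. The groups overlapped, and the differences were -0.02 in females (SE 0.09, interval -0.21 to 0.17) and 0.08 in males (SE 0.10, interval -0.11 to 0.28). Another Mttp probe set correlated with this one at only 0.24 after group means were taken off, and gave -0.16 in males (SE 0.08, adjusted p = 0.819).

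Sort1, the sorting receptor, gave the smallest p of any member for genotype in males. Female WT ran from 6.95 through a median of 7.14 to 7.38 and female KO from 6.92 through 7.18 to 7.43. Male WT gave 7.53, 7.30, 7.51, 7.48 and 7.16, and male KO ran from 7.48 through 7.56 to 7.82. In males, 3 of 6 KO arrays lay above all WT arrays, and the difference was 0.22 (SE 0.10, interval 0.02 to 0.42) with an unadjusted p of 0.0300 and a limma adjusted p of 0.777. In females it was 0.05 (SE 0.09, interval -0.14 to 0.23, adjusted p = 0.974).

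Among the receptors, Vldlr gave the smallest p of any member for genotype in females. Female WT ran from 5.85 through a median of 5.95 to 6.47 log2 intensity and female KO from 6.33 through 6.52 to 6.89. Male WT gave 5.50, 5.20, 5.21, 5.52 and 5.24, and male KO ran from 5.07 through 5.27 to 5.62. In females 3 of 6 KO arrays lay above all WT arrays and the other 3 overlapped them. In males the groups overlapped, with 1 of 6 KO arrays above all WT arrays and 3 of 6 below them.

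The female Vldlr difference was 0.50 (SE 0.12, interval 0.26 to 0.75, 1.42-fold). Its unadjusted p of 0.000274 was the 40th smallest of 38385, and after adjustment it did not pass (adjusted p = 0.257, and 0.0642 to 0.921 over the alternatives). In males the difference was -0.04 (SE 0.13, interval -0.30 to 0.22). The difference between the sexes' KO effects was 0.54 (SE 0.17, unadjusted p = 0.00435, adjusted p = 0.950), and 0 of 7 members passed that test, against 0.0104% of all probe sets. The dimmer Vldlr probe set gave 0.25 in females (SE 0.16, adjusted p = 0.895), in the same direction, though part of its male values, 3.27 to 3.90, fell among the values that Y-linked transcripts gave on female arrays.

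Lrp1, the large endocytic receptor for remnants, was 10.44 through a median of 10.53 to 10.68 in female WT and 10.37 through 10.67 to 10.94 in female KO. Male WT gave 10.53, 10.52, 10.63, 10.49 and 10.65, and male KO ran from 10.44 through 10.66 to 11.06. On this probe set the KO arrays scattered more widely than the WT arrays and overlapped them in both sexes, and the difference in scatter was not tested. The differences were 0.13 in females (SE 0.09, interval -0.06 to 0.31, adjusted p = 0.900) and 0.15 in males (SE 0.09, interval -0.04 to 0.35, adjusted p = 0.842). Another, dim Lrp1 probe set correlated with this one at -0.05 after group means were taken off, and gave -0.11 in females (SE 0.13, adjusted p = 0.939) and 0.11 in males (SE 0.13, adjusted p = 0.938). Its scatter was wider in WT than in KO in females (SD 0.35 against 0.14) and narrower in WT in males (0.14 against 0.24).

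Neither regulator of the lipase, Apoa5 or Angptl4, passed for genotype in either sex. Apoa5 ran from 13.07 through a median of 13.13 to 13.20 in female WT and from 12.59 through 13.09 to 13.22 in female KO. Male WT gave 13.035, 13.004, 12.877, 12.785 and 13.016, and male KO ran from 12.699 through 12.861 to 13.003. The lowest Apoa5 value was that of female KO replicate 3, the array with the raised pancreas markers. The differences were -0.10 in females (SE 0.08, interval -0.27 to 0.07, adjusted p = 0.915), and -0.01 without that array, and -0.09 in males (SE 0.09, interval -0.27 to 0.09, adjusted p = 0.918).

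Angptl4, the lipase inhibitor, ran from 9.46 through a median of 9.91 to 10.28 in female WT and from 8.65 through 9.99 to 10.77 in female KO. Male WT gave 8.91, 8.99, 9.20, 9.66 and 9.53, and male KO ran from 8.33 through 9.22 to 9.77. KO and WT arrays overlapped in both sexes. The differences were -0.04 in females (SE 0.26, interval -0.57 to 0.48, adjusted p = 0.993) and -0.08 in males (SE 0.27, interval -0.63 to 0.48, adjusted p = 0.986). The female value was 0.20 (adjusted p = 0.899) without female KO replicate 3, which held the lowest female value.

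Averaging the KO effect over the sexes did not bring a member past the threshold. It was 0.23 for Vldlr (SE 0.09, adjusted p = 0.643), 0.14 for Lrp1 (SE 0.06, adjusted p = 0.713) and 0.13 for Sort1 (SE 0.07, adjusted p = 0.734), and 0 of 7 members passed, against 0.0808% of all probe sets. The dim Lrp1 probe set gave an average with an interval of -0.19 to 0.19. The design text of the submitters instead takes an analysis of variance at an unadjusted threshold of 0.05 together with a change above 20%. Applied within each sex, that rule took 1 of 7 members in females, Vldlr, beside 1.03% of all probe sets. In males it took 0 of 7, beside 1.52%.

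Mttp and Sort1 lie on chromosome 3, which also carries P2ry13. Of 1202 single-symbol probe sets placed there, 22 passed in the average over the sexes, 1.83%, against 0.0130% of 23035 placed elsewhere. Along the chromosome, Sort1 falls between Prok1 and Fabp2, genes that passed, and Mttp lies beyond Fabp2, the last gene that passed. Neither Mttp nor Sort1 passed, and the part of chromosomal position in the calls was not tested.

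More members passed for sex than for genotype. Averaged over genotypes, 3 of 7 members passed, against 10.5% of all probe sets. Vldlr and Angptl4 were higher in females (2 of 7, against 5.96% of all probe sets in that direction) and Sort1 was lower in females (1 of 7, against 4.55%). These comparisons use the same arrays as the genotype comparisons. The shares here and for the lists below are over all probe sets, dim ones included, whereas the members lay between the 70.3 and 99.8 percentiles of intensity. With dim probe sets left out, 3855 probe sets still passed for sex, beside 4036 in the main fit, and 4 of 7 members passed. The share among the probe sets kept was therefore above 10.5%, and is not given here.

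Vldlr was higher in females by 1.01 log2 units (SE 0.09, interval 0.83 to 1.19, 2.02-fold, adjusted p = 1.62e-09). All 12 female arrays, at 5.85 or more, lay above all 11 male arrays, at 5.62 or less. In samples of whole liver, fewer cells of a type and less RNA per cell cannot be told apart. The dimmer probe set gave 0.78 (SE 0.12, adjusted p = 2.92e-05). Within genotype the difference was 0.74 in WT (SE 0.13, adjusted p = 0.000361) and 1.28 in KO (SE 0.12, adjusted p = 1.69e-08), and Vldlr was the only member to pass in WT (1 of 7, against 4.25% of all probe sets).

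Sort1 was lower in females, with a difference of -0.34 (SE 0.07, interval -0.48 to -0.21, 1.27-fold, adjusted p = 0.000626). In KO mice it was -0.43 (SE 0.09, adjusted p = 0.00325) and the sexes did not overlap, female KO ending at 7.43 and male KO starting at 7.48. In WT it was -0.26 (SE 0.10, adjusted p = 0.145), with overlap. Sort1 and Vldlr were the members that passed in KO (2 of 7, against 4.85% of all probe sets), and whether the Sort1 difference depends on genotype is the test of KO effects above, which it did not pass (-0.17, SE 0.13, adjusted p = 0.986).

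Angptl4 was higher in females by 0.67 (SE 0.19, interval 0.29 to 1.05, 1.59-fold, adjusted p = 0.0180), and 8 of 12 female arrays lay above all male arrays. It was 0.79 (adjusted p = 0.00109) without female KO replicate 3, and with a variance trend on intensity it lost the call (adjusted p = 0.0520). The values within genotype were near each other, 0.65 in WT (SE 0.27, adjusted p = 0.199) and 0.69 in KO (SE 0.26, adjusted p = 0.144). In KO, Angptl4 passed once female KO replicate 3 was left out (0.93, adjusted p = 0.0119).

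Apoa5 missed the threshold, at 0.18 (SE 0.06, interval 0.06 to 0.31, adjusted p = 0.0559), although 11 of 12 female arrays lay above all male arrays. The remaining female array, female KO replicate 3, lay below all of them, and without it the difference was 0.23 (adjusted p = 0.00244). It passed in 7 of 30 alternatives, with the adjusted p running from 0.00244 to 0.110 over all of them. Besides leaving out that array, these were leaving out dim probe sets (0.0355), quantile normalization (0.0339), equal array medians (0.0412), an intensity trend with robust variance (0.0278), and leaving out male KO replicate 3 (0.0494) or male KO replicate 4 (0.0402). What the pancreas markers of that array have to do with its Apoa5 and Angptl4 values was not tested. Apob, Mttp and Lrp1 did not pass, with differences of -0.26 (SE 0.26), 0.07 (SE 0.07) and -0.04 (SE 0.06). The other Mttp probe set gave -0.07 (SE 0.06).

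**Figure D2:**
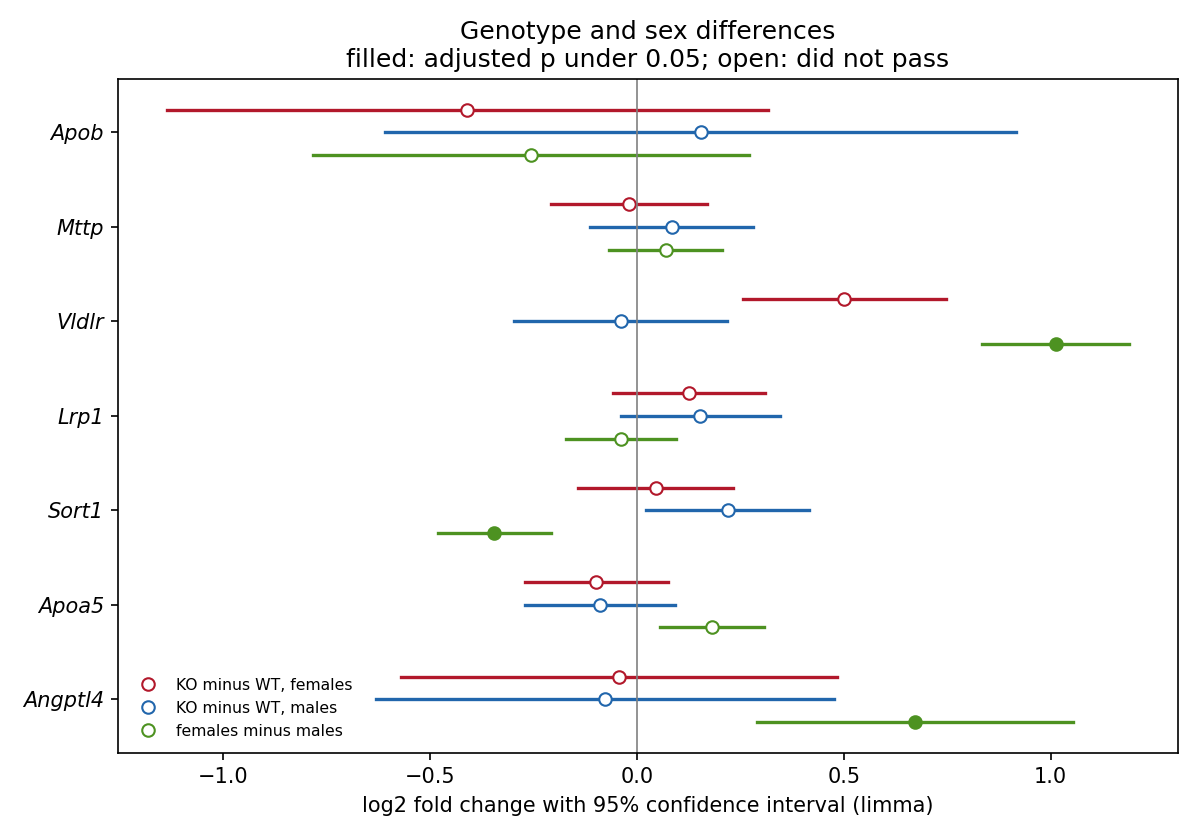
Fitted log2 differences (horizontal axis) with 95% confidence intervals for each measured gene, for KO minus WT in females, KO minus WT in males, and females minus males averaged over genotypes. Filled points passed at an adjusted p below 0.05. The 3 filled points are the sex differences of Vldlr (1.01), Sort1 (-0.34) and Angptl4 (0.67), and no genotype difference is filled.

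Apob and Angptl4 moved in opposite directions among arrays of the same group. In male WT, replicates 5 and 6 had the lowest Apob, 10.80 and 10.87, and the highest Angptl4, 9.66 and 9.53. In male KO, replicate 6 had the highest Apob, 12.74, and the lowest Angptl4, 8.33. In female KO, replicate 3 had the highest Apob, 12.16, and the lowest Angptl4, 8.65. The array highest in Apob was thus also the lowest in Angptl4 in both KO groups.

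After each array had its group mean taken off, Pearson's r between Apob and Angptl4 was -0.72 over 23 arrays (within-group permutation p = 0.00018, adjusted p = 0.00504) and Spearman's rho was -0.77 (permutation p = 0.00023, adjusted p = 0.00644). Without the 2 arrays farthest from the Apob median, female WT replicate 3 and male WT replicate 4, r was -0.76. It was -0.81 in female WT, -0.79 in female KO, -0.68 in male WT and -0.89 in male KO, and -0.71 without female KO replicate 3. The relation was picked out after the values had been seen, as 1 of 28 computed in the same way, and it was the only 1 of the 28 below 0.05 after adjustment. Apob and the array's overall median intensity correlated at -0.13 over the 23 arrays. By group this r was -0.01 in female WT, 0.18 in female KO, -0.98 in male WT (5 arrays) and 0.26 in male KO. The array medians lay close together, so these values say little about effects of the array, which were not tested.

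**Figure D3:**
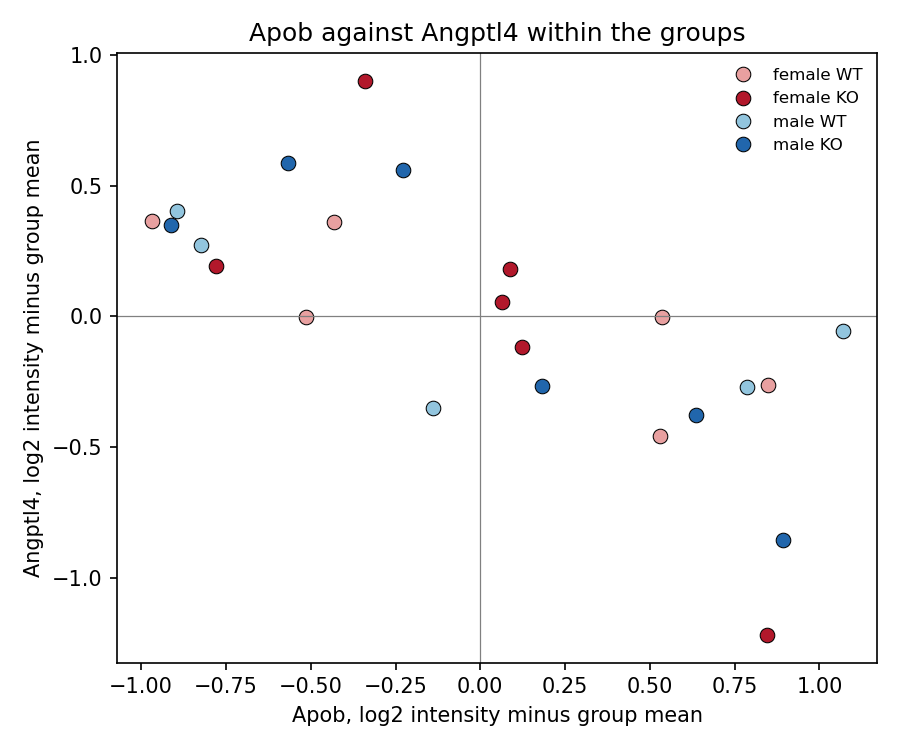
Log2 intensity minus its group's mean for Apob (horizontal axis) against the same for Angptl4 (vertical axis), 1 point per array, coloured by group. In each of the 4 groups the arrays with more Apob signal tended to have less Angptl4 signal, with r between -0.68 and -0.89.

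Apoa5 and Angptl4 gave r = 0.65 (permutation p = 0.016, adjusted p = 0.185), and Mttp and Apoa5 gave 0.51 (permutation p = 0.0198, adjusted p = 0.185), so neither held after adjustment. Without the 2 arrays farthest from the median, these fell to 0.57 and 0.34, and female KO replicate 3 was among the arrays left out in both.

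The genes whose group-centred values were most like each member were searched among 7111 genes with a mean log2 intensity of at least 6, so each r below is the highest of many and is a description without a test. Apob was most like Laptm4a, a lysosomal membrane protein (r = 0.96 over 23 arrays), Ppp1r37 (0.93) and Kdelr1, a receptor that returns proteins to the endoplasmic reticulum (0.93). Angptl4 was most like Ppara, the nuclear receptor that drives fatty acid oxidation genes in fasting (0.91), Slc25a47, a mitochondrial carrier of liver (0.89), and Lppos (0.84). Ppara ranged from 9.18 to 9.92 over the arrays and Laptm4a from 10.27 to 11.47. Like Apob, its partners Laptm4a, Ppp1r37 and Kdelr1 varied widely within groups, with residual SDs of 0.39, 0.32 and 0.37. The 95th percentile of all probe sets was 0.26. What these genes share with Apob from array to array was not tested.

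Mttp was most like Acaa2, a thiolase of mitochondrial fatty acid oxidation (0.89), Kars (0.86) and Ppil2 (0.84). These are partners of the brightest Mttp probe set, with which the other Mttp probe set correlated at only 0.24. Lrp1 was most like Tfr2, a transferrin receptor of liver (0.83), Als2cl (0.82) and Fn1, fibronectin (0.82). Apoa5 was most like Brms1 (0.77), Pex11a, a peroxisomal protein (0.75), and Dhrs13 (0.75). Vldlr was most like Selenoh (0.76), Slc16a7, a monocarboxylate carrier (0.75), and Cyp2c29 (0.74). Slc16a7 also followed Vldlr over all arrays without centring (r = 0.96), whereas Selenoh (-0.06) and Cyp2c29 (-0.52) did not. Without centring, r also takes in differences between the groups, and Vldlr differed between the sexes by 1.01 log2 units. Sort1 had the weakest partners, Amot (0.67), Zfp560 (0.64) and Slc17a5 (0.62).

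Genes that work beside the members were taken in 5 lists, and none of the 49 measured genes of those lists passed for genotype in either sex. Of all probe sets, 0.0547% passed in females and 0.0313% in males. With shares this small, a count of 0 among 49 does not set these genes apart from all probe sets. In the list for assembly and export of particles, 14 of 16 genes were measured, and the median KO-minus-WT difference was 0.06 in females and 0.04 in males, with all probe sets at -0.01 and 0.00. The medians of the receptor partners (9 of 15 measured) were 0.07 and 0.02, and those of lipases, cofactors and exchangeable apolipoproteins (10 of 14) were -0.01 and -0.02. The transcription factors of the pathway (8 of 11) had medians of 0.05 and 0.02, and the fasting and PPAR-alpha targets (8 of 10) had -0.04 and -0.01. The genotype values farthest from 0 in these lists included Nr1d1, a clock repressor, at 0.66 in females (adjusted p = 0.836) and Cyp4a14, a fatty acid hydroxylase, at -0.74 in males (adjusted p = 0.794).

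By sex, 4 of the 14 assembly genes were higher in females and 0 lower, where 5.96% of all probe sets were higher and 4.55% lower. They were Tm6sf2, a protein of lipid loading (0.89, adjusted p = 1.32e-10), Dgat2, a triglyceride-synthesis enzyme (0.47, adjusted p = 3.62e-07), Hspa5, a chaperone (0.22, adjusted p = 0.0309), and Sar1a, a GTPase of vesicle export (0.21, adjusted p = 0.00839). The list's median was 0.04, with all probe sets at -0.01. Among receptor partners 5 of 9 were higher and 0 lower, against the same 5.96% and 4.55%, and their median was 0.26 beside -0.01 for all probe sets. Sdc1, a heparan sulfate proteoglycan that takes up remnants, was higher by 0.50 (adjusted p = 3.32e-06), Sorl1, a sorting receptor related to sortilin, by 0.47 (adjusted p = 0.0214) and Lsr, a lipoprotein receptor, by 0.26 (adjusted p = 0.000920). The other two, Dab2 (0.34) and Stab1 (0.26), are also expressed in sinusoidal cells.

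Of the lipase and apolipoprotein genes, 4 of 10 were higher in females and 0 lower, against 5.96% and 4.55% of all probe sets, with a median of 0.07. These were Apom (0.28, adjusted p = 0.000202), Angptl6 (0.24, adjusted p = 0.0151), Apof (0.12, adjusted p = 0.0494) and Apoh (0.12, adjusted p = 0.0314). Among transcription factors Foxa2 was higher by 0.48 (adjusted p = 0.0195) and Creb3l3, an activator of fasting and apolipoprotein genes, was lower at -0.24 (adjusted p = 0.00246), with a list median of 0.02. Of the fasting and PPAR-alpha targets, 3 of 8 were higher and 0 lower, against the same shares, with a median of 0.17: Cyp4a14 by 2.57 (adjusted p = 6.52e-09), Vnn1 by 1.18 (adjusted p = 1.82e-06) and Acot1 by 0.40 (adjusted p = 0.0464). The call was lost for Acot1 in 20 of 30 alternatives, for Apof in 18, Hspa5 in 9, Apoh in 6 and Sorl1 in 1.

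Markers of cells other than hepatocytes moved with sex as well. All 6 Kupffer cell markers measured passed as higher in females, against 5.96% of all probe sets, with a median of 0.58, and their summed linear intensity was 3658 to 4386 in female WT, 3810 to 4942 in female KO, 2648 to 3419 in male WT and 2617 to 3567 in male KO. For the lists that follow, the shares over all probe sets were the same 5.96% passing as higher and 44.45% with a positive difference. Of the sinusoidal endothelial markers 4 of 6 passed as higher and 6 of 6 had a positive difference, with a median of 0.23. Of the stellate cell markers 3 of 6 passed and 5 of 6 were positive (median 0.17), and of the hepatocyte markers 1 of 5 passed and 4 of 5 were positive (median 0.13). None of these lists had a marker that passed for genotype in either sex, where 0.0547% of all probe sets passed in females and 0.0313% in males. The part of these cells in the sex differences of Vldlr, Sort1, Angptl4 and the receptor partners was not tested.

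**Figure D4:**
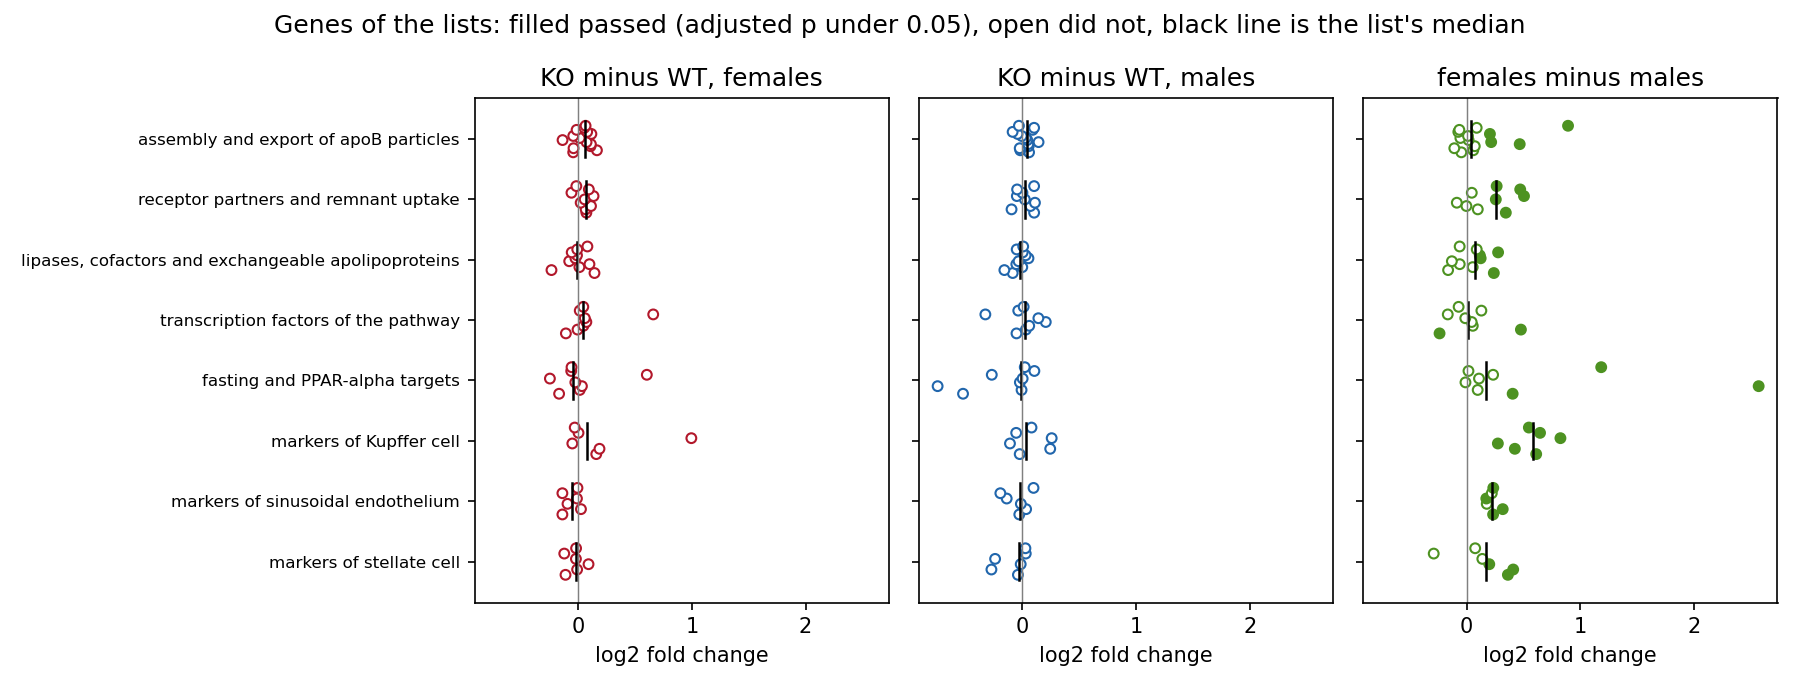
Fitted log2 differences (horizontal axis, shared by the 3 panels) of the measured genes of each list and of the Kupffer cell, sinusoidal endothelial and stellate cell markers (vertical axis), 1 point per gene. Filled points passed at an adjusted p below 0.05 and the black line is the list's median. No point is filled in either genotype panel, and all 6 Kupffer cell markers are filled on the female side of the sex panel.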

How the data were processed

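Liver RNA of 23 mice in 4 groups of sex and genotype, assigned from the titles, was read as biotin-labelled cRNA on 1-colour arrays, per the labels. The authors deposited 1 linear intensity value for each probe set and array, and the submitters' processing notes name RMA. The sources used here give neither its version nor its settings, and RMA shares a distribution across arrays, which can hide a shift of all genes. The deposited intensity was taken to log2 with no pseudocount. Of 38385 probe sets, 24478 had 1 symbol, 65 several and 13842 were unnamed here. All probe sets were fitted with limma 3.58.1 (R 4.3.3), with 1 mean per group, 19 residual and 7.61 prior degrees of freedom, p-values adjusted by Benjamini-Hochberg over the whole table and a threshold of 0.05. The precision is limited by the number of arrays. P-values measure the spread between these arrays. The script was tested on simulated data.

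The members, lists and tests were chosen with earlier results of these data known. The sex differences within a genotype and the correlations between members were added after seeing the data. Named are all members, P2ry13, list genes that passed or had the smallest p, and for each member the 3 genes with the highest group-centred r. Same-numbered arrays did not deviate together (2 of 22 pairs with a correlation over 0.1), so numbers were not used as pairs. Correlations used 100000 permutations within groups. RefSeq gene and promoter tables (GRCm38.p6) gave gene order and sequences. Figures used matplotlib 3.10.9 (Python 3.11.15). The alternatives tried left out dim probe sets or used 2 scalings, array weights, a variance trend, the replicate block, only the compared groups, ANOVA, all probe sets of a gene, or each array left out in turn.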

Additional observations from a re-analysis of the deposited data

Results flagged for a closer look

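In 1 of 28 groups tested (7 genes in 4 groups), a single array lay far from the others of its group. Apoa5 in female KO replicate 3 had a log2 intensity of 12.59, with the nearest array of that group at 13.06, a gap of 0.739 of the group's whole range. Chance flags about 1 in 20 groups. The same array held the highest sum of exocrine pancreas markers, 693 linear units, and the lowest female Angptl4 value, 8.65. Any link between these values was not tested.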

How the results depend on the processing

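Over 49 member differences (7 genes in 7 comparisons), 1526 alternative values were computed: 1455 kept direction and side of the threshold, 10 newly passed, 1 no longer passed and 60 changed sign, 52 of them on leaving out 1 array. None of the 6 differences that passed changed sign. At an adjusted p below 0.05, no member passed for genotype under any alternative run. The value that no longer passed was the sex difference of Angptl4 with an intensity trend and robust variance (adjusted p = 0.0520).

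With ANOVA of the compared groups, 7 probe sets passed for genotype in females, 3 in males, 765 for sex in WT and 1209 for sex in KO, against 21, 12, 1632 and 1862. With only the compared groups, 2 of 7 members passed for sex in WT, beside 1296 of 38385 probe sets. Angptl4 joined there at an adjusted p of 0.0316. Leaving out 1 array at a time gave 9 to 21 probe sets for genotype in males (21 without male WT replicate 6). For sex in KO it gave 2 to 4 of 7 members (4 without female KO replicate 3, Apoa5 and Angptl4 joining). The main fit took 2 of 7 there, against 4.85% of all probe sets, and the shares without 1 array are not given here. The cause was not tested.

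All differences that changed sign were small and had not passed. With quantile normalization the difference of KO effects was -0.006459 for Angptl4 and the sex difference in KO was -0.012491 for Mttp. With the mean of its probe sets Mttp gave -0.039158 for genotype in males, -0.023263 averaged, 0.03179 for the difference of KO effects and -0.014317 for sex in WT. Leaving out 1 array, the differences for genotype in females ran from -0.059289 to 0.03582 for Mttp, -0.224038 to 0.200264 for Angptl4 and -0.003026 to 0.097773 for Sort1. Those in males ran from -0.069102 to 0.42162 for Apob, -0.103655 to 0.007349 for Vldlr and -0.195544 to 0.093068 for Angptl4. Averaged, they ran from -0.239409 to 0.005952 for Apob and -0.15103 to 0.061121 for Angptl4. The difference of KO effects ran from -0.146016 to 0.278286 for Angptl4, -0.047286 to 0.07958 for Apoa5 and -0.08353 to 0.039393 for Lrp1. For sex, Apob in WT ran from -0.197811 to 0.292911, and in KO Mttp ran from -0.018383 to 0.072599 and Lrp1 from -0.108822 to 0.014101.

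With the replicate block, 18 probe sets passed for genotype in females, 13 in males, 27 averaged, 4 for the difference of KO effects and 3815 for sex, with 0 members for genotype and 3 for sex. The block turned the difference of KO effects of Apoa5 to 0.003003 and the sex difference of Apob in WT to -0.001152. Of 22 same-numbered pairs, 3 had their best correlation with their own number. Scaling moved the median of all probe sets by at most 0.0259.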
